A study of Homo sapiens with 12 samples.

Results

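Granins and the enzymes that process prohormones were followed as 10 genes, CHGA, CHGB, SCG2, SCG3, SCG5, VGF, PCSK1, PCSK2, CPE and PCSK1N. They were taken by gene symbol from the deposited count tables, which hold 28008 genes for each cell line, and all 10 were found in both tables. The study compared pancreatic neuroendocrine tumor (pNET) cells with and without silencing of MUC1, a transmembrane mucin, and RNA-seq was performed on the QGP-1 and BON-1 pNET lines. All 12 libraries came from cells that carried tet-MUC1shRNA, a hairpin against MUC1 that doxycycline (DOX) switches on, and that had been selected in puromycin. In each line 3 libraries came from cells given 0.1% DMSO as vehicle and 3 from cells given 500 ng/mL DOX, for 7 days. The labels say that the cells were cultured in triplicate, with RPMI 1640 medium for QGP-1 cells and DMEM/F-12 for BON-1 cells. No group of libraries analysed here received DOX without this hairpin, so DOX itself and the loss of MUC1 cannot be told apart, and each line is a single tumor-derived line.

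Granins are acidic proteins that are packed with hormones and amines in the dense-core secretory granules of neuroendocrine cells, and several are cut into active peptides. Inside the granule, prohormone convertases cut precursor proteins at pairs of basic residues, and a carboxypeptidase then trims the exposed ends. In neuroendocrine tumors the best known member is chromogranin A, the product of CHGA, which is widely measured as a tissue and blood marker.

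Total counts ranged from 38224144 to 50525926 for the QGP-1 libraries and from 15981954 to 28484324 for the shallower BON-1 libraries. MUC1, the target of the hairpin, was lower with DOX in both lines, by a log2 fold change of -2.91 (SE 0.23) for QGP-1 and -2.79 (SE 0.22) for BON-1, without overlap between libraries. Of 11 neuroendocrine tumor markers, 10 reached a CPM (a gene's count scaled by the TMM method to a common library total within a line) of 1 in the QGP-1 vehicle group and 8 in the BON-1 vehicle group, where ISL1 was at 0 in the vehicle and DOX libraries. Their summed level was 1060 to 1140 CPM with vehicle and 909 to 1060 CPM with DOX in QGP-1 cells, and 2460 to 2770 and 1140 to 1170 CPM in BON-1 cells, and TPH1 took most of the vehicle sum in both lines (mean 756 CPM for QGP-1 and 1770 CPM for BON-1). Of the 11 markers in QGP-1 cells 3 were higher and 3 were lower with DOX, beside 17.3% and 17.7% of all genes tested. Their median log2 fold change was 0.18. The higher ones included SSTR2 (2.22) and DDC (0.91), and the lower ones included UCHL1 (-0.56) and TPH1 (-0.40). The 8 acinar markers summed to 82.6 to 151 CPM with vehicle and 28.9 to 40.0 CPM with DOX for QGP-1, and to 51.4 to 67.7 and 34.0 to 47.2 CPM for BON-1, and nearly all of the QGP-1 sum was PRSS1, while CTRB1 was at 0 in every group.

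The 10 genes lie on 8 chromosomes of the GRCh38 build, among them CHGA (ENSG00000100604.13) on chromosome 14 from 92923150 to 92935285 and VGF (ENSG00000128564.8) on chromosome 7 from 101162509 to 101165569. Annotated genes overlap SCG3, SCG5, PCSK1, PCSK2 and CPE, and the overlap is on the same strand for SCG5 (the readthrough gene ARHGAP11A-SCG5) and CPE (MIR578). Reads of the overlapped parts could be split or left out by the counting, whose strand setting is not given in the sources used here. No annotated gene overlaps CHGA, CHGB, SCG2, VGF or PCSK1N.

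Promoter windows were searched for 4 short motifs. The cAMP response element, TGACGTCA, a site bound by CREB and related factors, lay in a RefSeq promoter window (250 bases before to 50 bases after the start, GRCh38.p14) of CHGA, VGF and PCSK1. Windows were found for 8 of the 10 genes, since CHGB and SCG2 had no entry, and PCSK1 and PCSK2 each had 2 windows. CHGA, VGF and PCSK1 were called lower with DOX in BON-1 cells, PCSK1 by a log2 fold change of only -0.23. They shared no such response in QGP-1 cells, where VGF was called higher (0.32) and CHGA (0.15) and PCSK1 (-0.11) were not called. SCG2, which was called higher in BON-1 cells, and CHGB could not be searched, so the match in BON-1 cells covers only the genes with a window. The part of the element in these responses was not tested. The element, which reads the same on both strands, was centred 50 bases before the start in CHGA, 75 in VGF and 73 in PCSK1, and was in 649 of all 35116 windows (1.85%). Of the other motifs, the GC box GGGCGG was in a window of 7 of the 8 genes, all except CPE, and in 45.0% of all windows, and the E-box CACGTG was in the window of VGF alone and in 7.26% of all windows. The 250 bases before the start are shown for these genes and, as a gene that was higher with DOX in both lines, for PCSK1N. Capitals mark TGACG and its reverse complement CGTCA, the core that a full element holds on both strands. It was in a window of 7 of the 8 genes, all except PCSK1N, and in 24.6% of all windows. These 7 include SCG3, which was also called higher with DOX in both lines, and SCG5 and CPE, which were called higher in QGP-1 cells.
CHGA, chr14:92922900-92923149, + strand: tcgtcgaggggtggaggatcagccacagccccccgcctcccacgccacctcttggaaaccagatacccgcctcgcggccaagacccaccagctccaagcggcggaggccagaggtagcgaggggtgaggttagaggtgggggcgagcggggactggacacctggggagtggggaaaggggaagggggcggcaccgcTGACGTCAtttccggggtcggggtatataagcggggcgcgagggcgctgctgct
VGF, chr7:101165570-101165819, - strand: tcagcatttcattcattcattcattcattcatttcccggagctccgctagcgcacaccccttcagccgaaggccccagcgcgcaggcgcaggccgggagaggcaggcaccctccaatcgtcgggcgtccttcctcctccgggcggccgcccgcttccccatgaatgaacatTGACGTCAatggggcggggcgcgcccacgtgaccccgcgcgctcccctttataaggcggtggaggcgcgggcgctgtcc
PCSK1, chr5:96433249-96433498, - strand: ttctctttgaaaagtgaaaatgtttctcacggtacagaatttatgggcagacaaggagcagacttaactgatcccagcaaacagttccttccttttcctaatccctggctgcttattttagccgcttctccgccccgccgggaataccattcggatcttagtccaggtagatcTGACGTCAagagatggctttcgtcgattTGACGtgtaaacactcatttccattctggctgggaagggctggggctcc
PCSK1N, chrX:48835611-48835860, - strand: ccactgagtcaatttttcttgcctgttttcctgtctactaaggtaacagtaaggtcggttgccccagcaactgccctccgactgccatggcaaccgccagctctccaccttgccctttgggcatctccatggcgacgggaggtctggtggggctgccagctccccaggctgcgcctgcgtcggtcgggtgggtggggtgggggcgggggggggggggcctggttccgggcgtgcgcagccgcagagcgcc
The PCSK1N stretch has no capitals, and the PCSK1 stretch holds the core again after the full element. Over all genes with a window, those that hold the element were called in both directions. In BON-1 cells 83 of 398 tested genes with the element were lower with DOX (20.9%) and 78 were higher (19.6%), against 18.9% lower and 17.2% higher of the 10290 genes without it. In QGP-1 cells 13.8% of 421 genes with the element were lower and 22.8% were higher, against 18.2% and 18.4% of 10608 genes without it.

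The levels of the 10 genes were ranked on the deposited TPM, which is corrected for gene length. With vehicle, BON-1 cells held most CHGA (1820 ± 78.1 TPM; SD, n = 3) and then SCG2 (1030 ± 163 TPM), which encodes secretogranin II. CPE at 299 ± 36.1 TPM, SCG3 at 267 ± 44.4, CHGB at 206 ± 39.7 and VGF at 203 ± 31.8 followed, and each neighbouring pair of these overlapped between libraries. Within single libraries CPE lay above SCG3 and SCG3 above CHGB in 3 of 3, and CHGB above VGF in 2 of 3. PCSK1 came next at 96.9 ± 12.6 TPM, whereas PCSK1N (6.95 ± 0.839 TPM), SCG5 (1.74 ± 0.325 TPM) and PCSK2 (0.186 ± 0.158 TPM) were low, and none of these last ranks overlapped with its neighbour.

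QGP-1 cells with vehicle held most SCG2 (427 ± 37.3 TPM) and VGF (270 ± 53.1 TPM). CPE (145 ± 9.30 TPM), SCG3 (133 ± 9.65 TPM) and PCSK1 (114 ± 10.9 TPM) overlapped from each to the next between libraries, although within single libraries they kept this order in 3 of 3. CHGB lay below them at 44.9 ± 3.15 TPM. SCG5 (19.6 ± 1.93 TPM), PCSK1N (15.3 ± 3.75 TPM) and CHGA (13.7 ± 1.70 TPM) again overlapped from each to the next, and PCSK2 was lowest at 9.73 ± 1.27 TPM. Within single libraries SCG5 lay above PCSK1N in 3 of 3 and PCSK1N above CHGA in 2 of 3. On the deposited TPM, CHGA thus ranked 9 of 10 in QGP-1 cells and 1 of 10 in BON-1 cells.

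**Figure D1:**
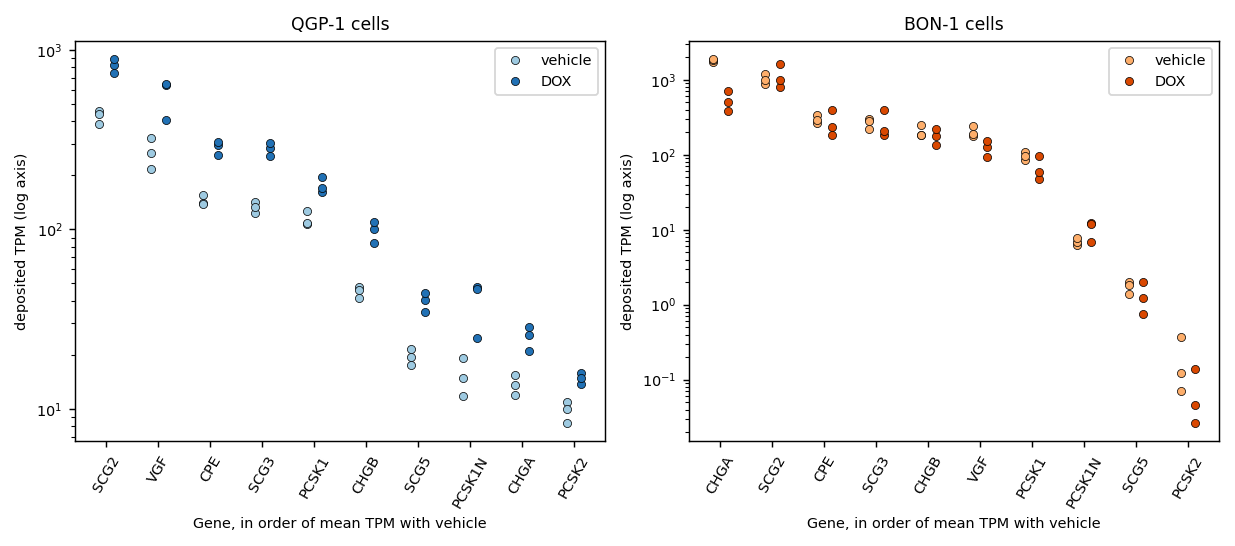
Deposited TPM of the 10 genes (log axis) in QGP-1 cells (left) and BON-1 cells (right), ordered by mean TPM with vehicle, with 1 point for each library, light for vehicle and dark for DOX. With vehicle CHGA is the highest of the 10 in BON-1 cells (1820 TPM) and the ninth in QGP-1 cells (13.7 TPM), and with DOX the BON-1 CHGA points lie below those of SCG2 in 3 of 3 libraries.

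TPM within a library depends on every other gene, and the noncoding RNAs RN7SK, RN7SL1 and RN7SL2 took 71.2 to 80.3% of all TPM in QGP-1 libraries and 50.9 to 74.3% in BON-1 libraries. The order within a library is not moved by that share. Libraries were compared on TPM only as an alternative to the tests on counts. With exon lengths from the GENCODE annotation in place of the lengths behind the deposited TPM, 6 of the 10 genes kept their rank with vehicle in each line. CHGA then ranked 8 in QGP-1 cells and stayed at 1 in BON-1 cells.

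The lines themselves differed in most of these genes before any DOX was given. In the fit of all 12 libraries, 74.9% of 16598 genes differed between the lines with vehicle (37.5% higher and 37.5% lower in BON-1 cells), and 9 of the 10 genes did. CHGA was 52.0-fold higher in BON-1 cells (log2 difference 5.70, SE 0.13, edgeR adjusted p = 2.63e-22). CHGB was 1.76-fold higher (log2 difference 0.81, SE 0.095, edgeR adjusted p = 3.90e-08).

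SCG2 did not pass the test between the lines, with a log2 difference of -0.12 (SE 0.085, edgeR adjusted p = 0.190). SCG3 (log2 difference -0.39) and CPE (-0.34) were modestly lower in BON-1 cells. PCSK1 (-1.62), VGF (-1.79) and PCSK1N (-2.49) were lower by more. SCG5, which encodes the chaperone 7B2 of prohormone convertase 2, differed by -4.89 on the log2 scale, and PCSK2, which encodes that convertase, by -7.15. The convertase and its chaperone were thus both low in BON-1 cells, with raw counts of 7 to 37 for PCSK2 and 90 to 126 for SCG5 in the vehicle libraries, against 5232 to 6077 and 5026 to 6889 in QGP-1 cells. Cell line, count table, medium and depth cannot be told apart in these differences.

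In QGP-1 cells DOX raised 6 of the 10 genes and lowered none at an edgeR adjusted p below 0.05, while 35.0% of the 15089 genes tested were called, 17.3% of them higher and 17.7% lower. The changes were small, with a median log2 fold change of 0.27 over the 10 genes against -0.01 over all genes tested. Together the 10 genes took 0.857 to 0.920% of all counts with vehicle and 1.01 to 1.10% with DOX. In bulk RNA, fewer cells of a type and less RNA per cell cannot be told apart. Values in CPM are compared between libraries for the same gene.

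Among the granins in QGP-1 cells, CHGB, which encodes chromogranin B, was at 297, 311 and 300 CPM with vehicle and 387, 371 and 429 CPM with DOX. All DOX libraries lay above all vehicle libraries, and the log2 fold change was 0.39 (SE 0.069, edgeR adjusted p = 7.31e-04). SCG3, whose product binds chromogranin A and cholesterol at the granule membrane, rose from 1138, 1070 and 1242 CPM to 1509, 1340 and 1514 CPM. Its libraries did not overlap either, and the log2 fold change was 0.34 (SE 0.074, edgeR adjusted p = 0.00291).

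VGF, the precursor of several neuropeptides, was at 1944, 1737 and 1514 CPM with vehicle and 1797, 2250 and 2422 CPM with DOX. DOX replicate 1 lay below the highest vehicle library, and the log2 fold change of 0.32 (SE 0.11, edgeR adjusted p = 0.0313) did not survive 4 of the 6 fits on 5 libraries, namely those without vehicle replicate 2, vehicle replicate 3, DOX replicate 2 or DOX replicate 3 (highest adjusted p over all alternatives 0.135). SCG2 was at 2755, 2526 and 3070 CPM with vehicle and 3285, 2950 and 3356 CPM with DOX, groups that overlapped, and its log2 fold change of 0.20 (SE 0.079, edgeR adjusted p = 0.0642) did not pass the test. It passed without vehicle replicate 3 or without DOX replicate 2. CHGA was at 155, 149 and 140 CPM with vehicle and 156, 154 and 180 CPM with DOX, with a log2 fold change of 0.15 (SE 0.077, edgeR adjusted p = 0.158).

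Among the enzymes and their partners in QGP-1 cells, CPE, the carboxypeptidase that trims basic residues after the convertases have cut, rose from 970, 953 and 999 CPM to 1197, 1094 and 1200 CPM without overlap (log2 fold change 0.26, SE 0.064, edgeR adjusted p = 0.00677). SCG5 rose from 132, 118 and 138 CPM to 157, 146 and 168 CPM, again without overlap (log2 fold change 0.28, SE 0.079, edgeR adjusted p = 0.0137), although this call was lost without vehicle replicate 2 or without DOX replicate 3. PCSK1N, which encodes proSAAS, an inhibitor of prohormone convertase 1, showed the most positive change of the 10, from 39.0, 32.8 and 27.7 CPM to 37.2, 57.6 and 59.0 CPM. Its DOX replicate 1 lay within the vehicle range, and the log2 fold change was 0.63 (SE 0.16, edgeR adjusted p = 0.00631).

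The convertases themselves did not pass the test in QGP-1 cells. PCSK1, which encodes prohormone convertase 1, was at 1659, 1524 and 1650 CPM with vehicle and 1567, 1515 and 1401 CPM with DOX (log2 fold change -0.11, SE 0.067, edgeR adjusted p = 0.235). PCSK2 was at 137, 136 and 122 CPM with vehicle and 128, 118 and 117 CPM with DOX (log2 fold change -0.13, SE 0.072, edgeR adjusted p = 0.198). In both genes the DOX and vehicle libraries overlapped. Over the 10 genes, 4 (CHGB, SCG3, SCG5 and CPE) had all DOX libraries above all vehicle libraries and 0 had all below, beside 23.5% and 23.2% of all genes tested.

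**Figure D2:**
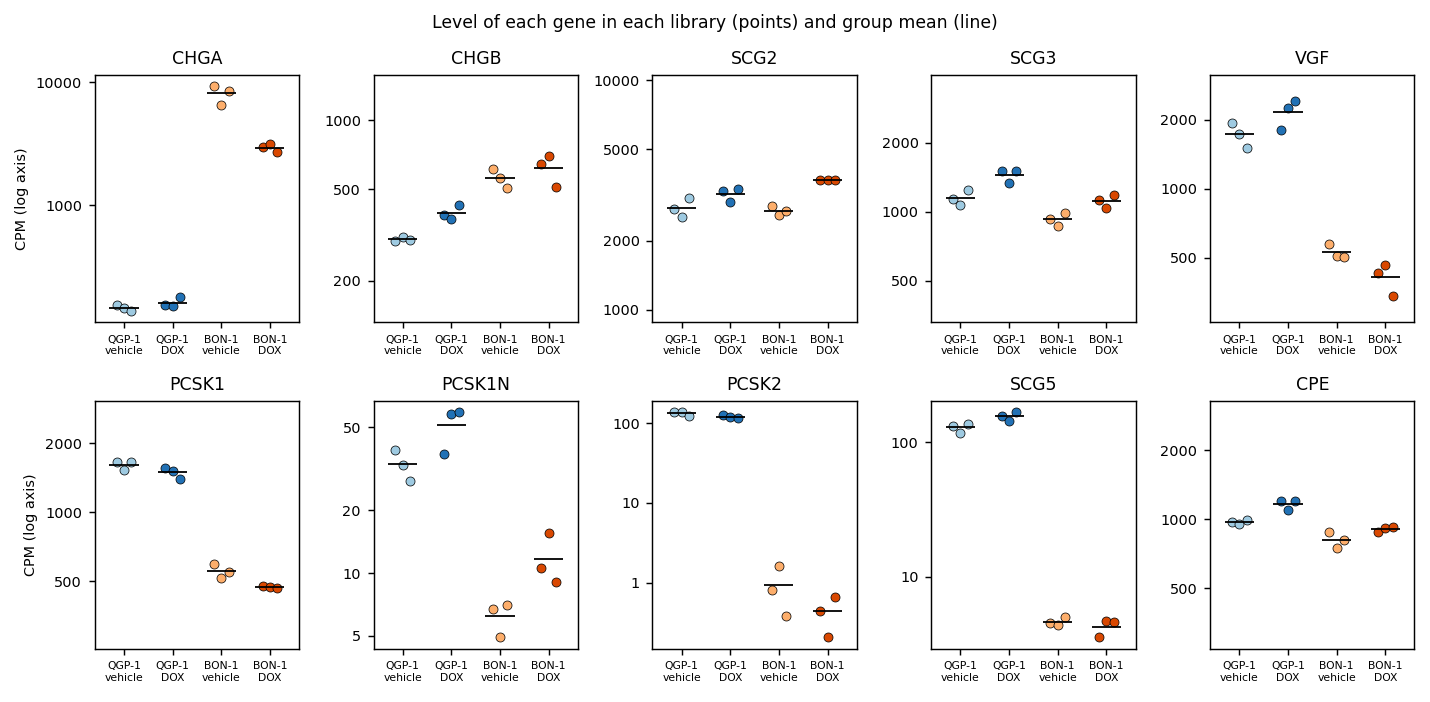
CPM of each of the 10 genes on log axes, with 1 point for each library and a line at the group mean, for vehicle and DOX in QGP-1 cells (blue) and BON-1 cells (orange). The BON-1 CHGA points drop from between 6535 and 9328 CPM to between 2705 and 3130 CPM, whereas the QGP-1 points stay between 140 and 180 CPM, and the axis range differs between genes.

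In BON-1 cells DOX raised 3 of the 10 genes (SCG2, SCG3 and PCSK1N) and lowered 3 (CHGA, VGF and PCSK1), while 35.3% of the 14625 genes tested were called, 17.0% higher and 18.3% lower. The median log2 fold change was 0.02 over the 10 genes and -0.01 over all genes tested. The 10 genes took 1.29 to 1.56% of all counts with vehicle and 0.974 to 1.03% with DOX.

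CHGA was at 9328, 6535 and 8449 CPM with vehicle and 2973, 3130 and 2705 CPM with DOX in BON-1 cells. Each DOX library lay below each vehicle library by more than the spread within either group. The log2 fold change was -1.46 (SE 0.11, edgeR adjusted p = 2.45e-11), a fold of 0.362, and it ranked 196 of 14625 from the most negative. It stayed between -1.61 and -1.35 when any 1 library was left out. CHGA made up 53.0 to 59.2% of the counts of the 10 genes, a share not corrected for gene length, with vehicle and 27.5 to 30.0% with DOX. The neuroendocrine marker sum fell with it, mostly through TPH1, whose mean went from 1768 to 388 CPM. Of its 8 markers tested in BON-1 cells 4 were lower with DOX, 0 were higher and 4 were not called. The lower ones included TPH1 (log2 fold change -2.19) and DDC (-0.83). INSM1 had means of 638 and 616 CPM, and UCHL1 did not pass the test (0.62, edgeR adjusted p = 0.0854). Of 4 ductal markers tested, KRT19 (0.79) and SOX9 (0.31) were higher and KRT7 (-0.53) was lower, and the 5 of the list summed to 842 to 922 CPM with vehicle and 906 to 1040 CPM with DOX. Of 7 stromal and immune markers, 2 were tested and CD68 was higher (1.00, from a mean of 25.3 to 50.6 CPM). The part of these markers in the result was not tested.

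SCG2, SCG3 and CHGB did not fall with CHGA. SCG2 rose from 2829, 2587 and 2677 CPM to 3680, 3689 and 3689 CPM, without overlap (log2 fold change 0.45, SE 0.085, edgeR adjusted p = 1.26e-04). SCG3 rose from 928, 866 and 992 CPM to 1122, 1041 and 1188 CPM, also without overlap (log2 fold change 0.27, SE 0.083, edgeR adjusted p = 0.0131), but the call was lost without vehicle replicate 2 or without DOX replicate 3. CHGB was at 614, 562 and 505 CPM with vehicle and 642, 702 and 512 CPM with DOX, groups that overlapped (log2 fold change 0.14, SE 0.095, edgeR adjusted p = 0.259), and it passed the test only without DOX replicate 3 among the fits that left out 1 library. VGF went the same way as CHGA. It fell from 575, 511 and 502 CPM to 432, 466 and 341 CPM without overlap (log2 fold change -0.36, SE 0.092, edgeR adjusted p = 0.00311).

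Of the enzymes in BON-1 cells, PCSK1 was at 596, 515 and 552 CPM with vehicle and 476, 475 and 470 CPM with DOX. The groups did not overlap, and the log2 fold change was -0.23 (SE 0.078, edgeR adjusted p = 0.0231), a call that was lost without vehicle replicate 1 or without vehicle replicate 3. PCSK1N, the inhibitor, rose from 6.71, 4.92 and 7.06 CPM to 10.6, 15.6 and 9.01 CPM without overlap (log2 fold change 0.92, SE 0.20, edgeR adjusted p = 5.90e-04).

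CPE was at 881, 749 and 813 CPM with vehicle and 882, 917 and 926 CPM with DOX. The groups were only just apart, and its log2 fold change of 0.16 (SE 0.081, edgeR adjusted p = 0.134) passed the test only without vehicle replicate 1 among the fits that left out 1 library. SCG5 was at 4.47, 4.35 and 5.0 CPM with vehicle and 3.53, 4.63 and 4.58 CPM with DOX (log2 fold change -0.11, SE 0.23, edgeR adjusted p = 0.748). PCSK2 was near the detection limit, with raw counts of 23, 37 and 7 with vehicle and 7, 4 and 13 with DOX, and its log2 fold change of -1.12 (SE 0.58, edgeR adjusted p = 0.142) had the widest error of the 10. Its log2 fold change lay between -1.59 and -0.49 when 1 library was left out, and among the alternatives it passed the test with both lines in 1 fit (edgeR adjusted p = 0.0429). All DOX libraries lay above all vehicle libraries for 4 of the 10 genes (SCG2, SCG3, CPE and PCSK1N) and below for 3 (CHGA, VGF and PCSK1), beside 22.4% and 23.9% of all genes tested.

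Whether the lines responded differently was tested as a line-by-treatment interaction over all 12 libraries, where 16.7% of 16598 genes were called, 8.80% more positive and 7.92% more negative in BON-1 cells. With scaling by library size alone the called genes split as 1123 more positive and 1823 more negative, against 1461 and 1315 with TMM. Of the 10 genes, 2 were called, both more negative in BON-1 cells, and these 2 were also called with library size alone. The response of CHGA differed by -1.60 on the log2 scale (SE 0.15, edgeR adjusted p = 4.82e-08) and that of VGF by -0.67 (SE 0.16, edgeR adjusted p = 0.00514). Both differences were called in each of the 12 fits that left out 1 library.

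For the other 8 genes the difference in response did not pass the test. This includes CHGB, SCG5 and CPE, which were called in QGP-1 cells alone, and SCG2 and PCSK1, which were called in BON-1 cells alone. The differences were -0.24 for CHGB (SE 0.13, edgeR adjusted p = 0.249), 0.26 for SCG2 (edgeR adjusted p = 0.144), -0.37 for SCG5 (edgeR adjusted p = 0.141), -0.11 for PCSK1 (edgeR adjusted p = 0.548) and -0.09 for CPE (edgeR adjusted p = 0.635). PCSK2 passed the filter on low counts of this fit through its QGP-1 libraries. SCG3 and PCSK1N were called higher in both lines, with differences of -0.06 (edgeR adjusted p = 0.785) and 0.30 (edgeR adjusted p = 0.488).

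**Figure D3:**
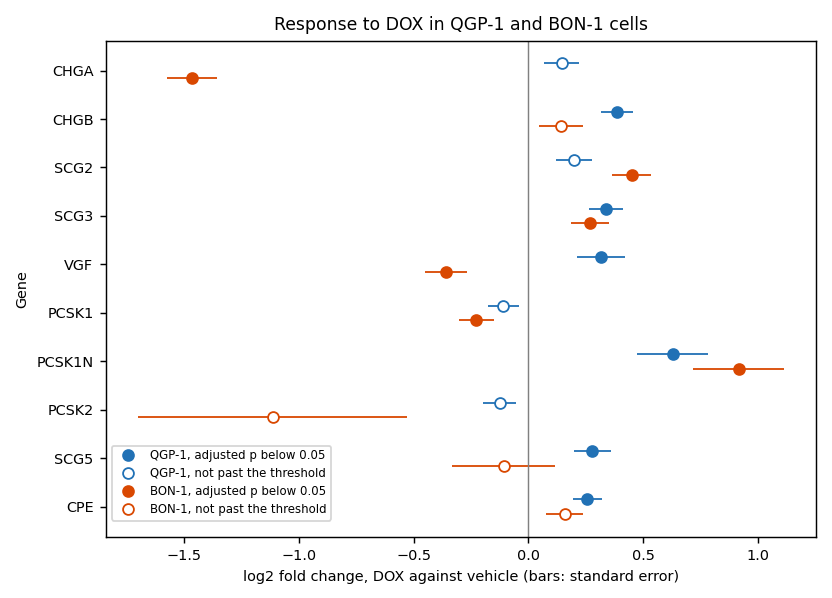
Log2 fold change of each gene with DOX against vehicle (horizontal axis, bars are standard errors) in QGP-1 cells (blue) and BON-1 cells (orange), with 3 against 3 libraries in each line and filled points at an edgeR adjusted p below 0.05. CHGA lies at 0.15 for QGP-1 and at -1.46 for BON-1, VGF lies on opposite sides of 0, and SCG3 and PCSK1N are filled and above 0 in both lines.

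Ratios within a library show how the makeup of the granins shifted, since they do not depend on how libraries are scaled to each other. In BON-1 cells the CHGA to SCG2 ratio of TPM was 1.98, 1.52 and 1.90 with vehicle and 0.485, 0.509 and 0.440 with DOX, so SCG2 took the top rank from CHGA in 3 of 3 DOX libraries. In QGP-1 cells the same ratio was 0.0337, 0.0354 and 0.0273 with vehicle and 0.0285, 0.0313 and 0.0322 with DOX, and the groups overlapped. The CHGA to CHGB ratio was lower with DOX in both lines, without overlap. It went from 9.44, 7.23 and 10.4 to 2.88, 2.77 and 3.28 in BON-1 cells. In QGP-1 cells it went from 0.324, 0.297 and 0.289 to 0.25, 0.258 and 0.261, a smaller shift.

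The ratio of PCSK1 to its inhibitor PCSK1N was lower with DOX in both lines. In BON-1 cells it was 13.8, 16.2 and 12.1 with vehicle and 6.96, 4.71 and 8.08 with DOX. In QGP-1 cells it was 6.58, 7.18 and 9.22 with vehicle and 6.52, 4.07 and 3.67 with DOX. The groups did not overlap in either line, although in QGP-1 cells DOX replicate 1 lay just below the lowest vehicle library. The shift was mostly the PCSK1N rise (log2 fold change 0.63 for QGP-1 and 0.92 for BON-1). PCSK1 changed by -0.11 (not called) and -0.23. Among the other convertase ratios computed, PCSK1 to PCSK2 overlapped between groups in both lines. SCG5 to PCSK2 overlapped for BON-1 and was higher with DOX, without overlap, for QGP-1. Of single genes, 23.2% (QGP-1) and 23.9% (BON-1) had all DOX libraries below all vehicle libraries. No such share was worked out for ratios. With 3 libraries against 3, an exact two-sided permutation test of such a ratio cannot give a p below 0.10, and none was run. These are ratios of mRNA, and no protein or enzyme activity was measured in the files used here.

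Across the 12 libraries, after the mean of each line was subtracted from log2 CPM, CPE, SCG2 and SCG3 moved most alike among the 10 genes. Pearson r was 0.90 for CPE with SCG3, 0.86 for SCG2 with SCG3 and 0.81 for CPE with SCG2. CHGA ran with PCSK1 (r = 0.71) and VGF (r = 0.68) and opposite to SCG2 (r = -0.75). These values describe libraries that share groups and tables, and the spread of CHGA in them comes largely from BON-1 cells.

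Of the 10 genes, PCSK1N was the one called in both lines with the largest mean change. The genes whose pattern over the 12 libraries was most like it, of 16597 compared, were RTL8B and SUN1 (r = 0.94 each), SBF2 and CD99L2 (r = 0.93 each) and PSEN2 (r = 0.92). RTL8B, SBF2 and CD99L2 were called higher in both lines, which follows in part from their choice as genes like PCSK1N. SUN1 was called in BON-1 cells alone (log2 fold change 0.13 for QGP-1 and 0.29 for BON-1) and PSEN2 in neither line (0.19 and 0.24). The nearest to CHGA, looked up after its values were seen, were BACE1, NKAIN2 and TTL (r = 0.98 each) and HAAO and MEP1A (r = 0.97 each). The log2 fold change of BACE1 was -0.01 for QGP-1 and -0.34 for BON-1, that of NKAIN2 was 0.30 (edgeR adjusted p = 0.00337) and -2.44, and that of TTL was 0.06 and -0.70. HAAO and MEP1A passed the filter on low counts in BON-1 cells alone, so their likeness to CHGA rests largely on those libraries. Both were lower there. The falls of all these genes in BON-1 cells follow in part from their choice as genes like CHGA.

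Other genes of the prohormone pathway were read from lists written for this comparison. Of the 7 other proprotein convertases, 5 were tested in QGP-1 cells with 0 higher and 0 lower, and 7 in BON-1 cells with 0 higher and 2 lower. These were MBTPS1, the site-1 protease (log2 fold change -0.53), and FURIN, the convertase of the general secretory route (-0.35). The response of MBTPS1 differed between the lines (difference -0.65, edgeR adjusted p = 1.70e-04).

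Of the 10 trimming and modifying enzymes, 9 were tested in each line. In QGP-1 cells 1 was higher and 2 were lower, and in BON-1 cells 0 were higher and 3 were lower. PAM, which amidates the ends of many peptide hormones, rose in QGP-1 cells (log2 fold change 0.59) and fell in BON-1 cells (-0.34), a difference of -0.91 (edgeR adjusted p = 4.26e-06). The gene CPM, which encodes carboxypeptidase M of the cell surface, fell in both lines (-1.27 and -0.45). CTSL fell in QGP-1 cells (-0.44) and CTSB in BON-1 cells (-0.34), and both encode cathepsins.

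Of 20 genes for the granule membrane and granule formation, 19 were tested in each line. In QGP-1 cells 6 were higher and 3 were lower, and in BON-1 cells 5 were higher and 4 were lower, with medians of 0.05 and -0.02. RAB2A (0.25 in QGP-1 and 0.29 in BON-1 cells), PTPRN2 (0.31 and 0.20) and CADPS2 (0.30 and 0.27) rose in both lines and ICA1 fell in both (-0.21 and -0.53). SV2A, a vesicle glycoprotein, rose in QGP-1 cells (0.31) and fell in BON-1 cells (-0.73), and RAB27A, a GTPase of granule docking, did the reverse (-0.27 and 0.42). ICA1L rose (0.84) and PICK1 fell (-0.48) in QGP-1 cells.

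Of 37 prohormone substrates, 14 were tested in QGP-1 cells with 5 higher and 2 lower, and 13 in BON-1 cells with 3 higher and 5 lower. SST, which encodes somatostatin, rose in QGP-1 cells from a mean of 101 CPM to 278 CPM (log2 fold change 1.46) and fell in BON-1 cells from 7.51 to 3.36 CPM (-1.16), a difference of -2.62 (edgeR adjusted p = 1.51e-08). NTS, which encodes neurotensin, rose in both lines (1.02 and 0.83), and CALCB, a calcitonin gene-related peptide gene, fell in both (-0.84 and -1.12). IGF2 rose from 0.72 to 1.97 CPM in QGP-1 cells (1.45) and fell from 2470 to 1984 CPM in BON-1 cells (-0.32). GRP rose in QGP-1 cells (1.73). In BON-1 cells PTHLH (1.11) and ADM (1.05) rose and GAL, which encodes galanin (-1.85), and ADCYAP1, which encodes PACAP (-1.21), fell.

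Of 15 transcription regulators of neuroendocrine genes, 13 were tested in QGP-1 cells with 6 higher and 2 lower, and 12 in BON-1 cells with 1 higher and 3 lower. REST, a repressor of neuronal and neuroendocrine genes whose known targets include granin genes, fell in both lines, from a mean of 10.1 to 6.54 CPM in QGP-1 cells (log2 fold change -0.62, SE 0.13) and from 10.4 to 6.77 CPM in BON-1 cells (-0.63, SE 0.19). EGR1 rose (1.31) and PAX6 fell (-0.59) in QGP-1 cells. CREM, which encodes factors that bind the cAMP response element, was at a mean of 36.4 CPM with vehicle and 34.3 CPM with DOX in QGP-1 cells (-0.08, edgeR adjusted p = 0.536) and rose from 19.8 to 35.7 CPM in BON-1 cells (0.84, edgeR adjusted p = 4.42e-06), and the difference of 0.94 was called (edgeR adjusted p = 4.62e-04). FOXA2 fell in BON-1 cells (-0.31). The shares called in these lists stand beside 35.0% and 35.3% of all genes tested, and no list was tested as a set.

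**Figure D4:**
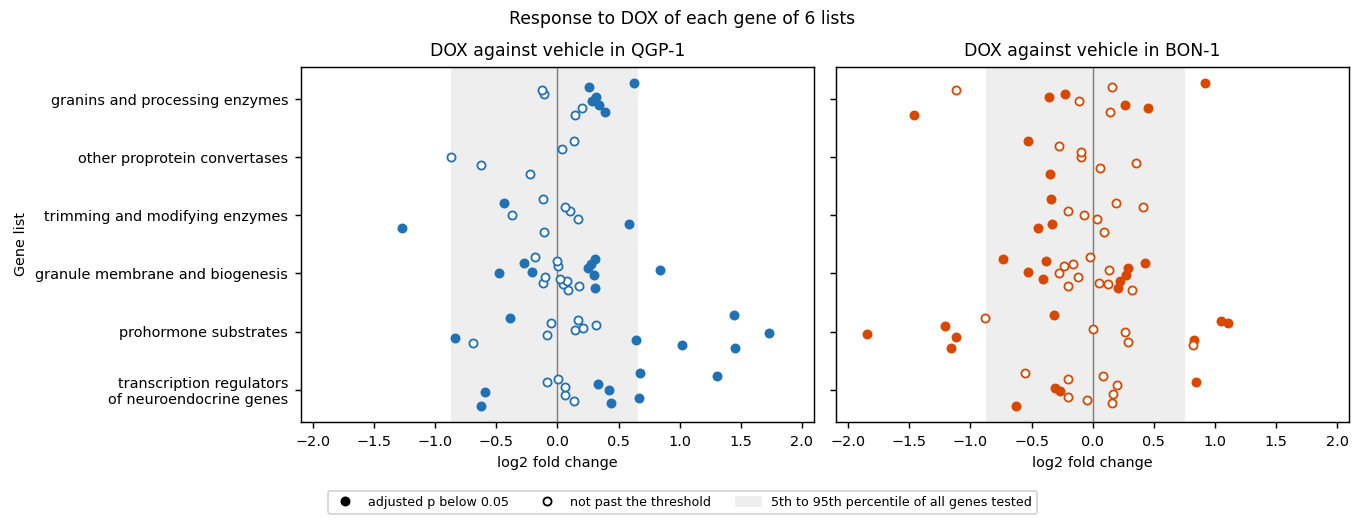
Log2 fold change with DOX against vehicle for each tested gene of 6 lists, in QGP-1 cells (left) and BON-1 cells (right), with filled points at an edgeR adjusted p below 0.05 and a grey band from the 5th to the 95th percentile of all genes tested (-0.863 to 0.652 at left, -0.863 to 0.746 at right). Of the granins and processing enzymes, CHGA at -1.46 and PCSK1N at 0.92 are the filled points outside the band in BON-1 cells, and none lies outside it in QGP-1 cells.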

How the data were processed

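RNA-seq libraries (TruSeq Stranded mRNA, per the labels) were made from the pNET lines QGP-1 and BON-1, both carrying tet-MUC1shRNA, with 3 libraries in each of 4 groups. The submitters' processing notes name STAR, DESeq2 and GRCh38. The program that counted reads and its strand setting are not given in the sources used here. The authors deposited, for each line, unnormalized counts of each gene and a TPM table in which counts are divided by a gene length and scaled within a library. Columns were matched to libraries by name, and 0 columns of per-sample values stayed out of use.

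Tests on counts used edgeR 4.0.16 under R 4.3.3 (default filter on low counts, TMM, quasi-likelihood F test, Benjamini-Hochberg over all genes tested, called below an adjusted p of 0.05, whatever the fold). Each line was fitted by itself, and the level with vehicle and the difference of the responses came from 1 fit of the 12 libraries. CPM values are scaled by TMM within a line. The standard error is the log2 fold change divided by the square root of F. The code was tested on simulated data. Replicates differed by more than sampling noise in every pair (chi-square per gene 5.92 to 29.7), and p-values measure the spread between cultures of 1 line.

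The genes, the lists and the tests were chosen with earlier results of these data known. The text names the 10 genes, MUC1, and of each other list the 2 called genes at either extreme of the log2 fold changes in each line and those called in both lines, except for listed genes that are not reported here. For the one of the 10 genes called in both lines with the largest mean change it names the 5 genes most like it. Gene positions are from GENCODE v44 (GRCh38) and promoters from RefSeq (GRCh38.p14). Motifs searched on both strands were TGACGTCA, its core TGACG, the E-box CACGTG (7.26% of windows) and the GC box GGGCGG (45.0%).

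The alternatives were DESeq2 1.42.0, library size or upper quartile scaling, no filter or at least 10 counts in every library, a block for the replicate number, both lines or the vehicle libraries alone in 1 fit, limma 3.58.1 on log2(TPM + 1) where the mean TPM was 1 or more, with and without RN7SK, RN7SL1 and RN7SL2, a minimum absolute log2 fold change of 1, and leaving out each library.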

Additional observations from a re-analysis of the deposited data

Results flagged for a closer look

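The response to DOX differed between the lines for 22 of the genes named, by an edgeR test of the line-by-treatment interaction over all 12 libraries. Of all 16598 genes tested, 16.7% were called. Apart from the granins and processing enzymes, the listed genes were mostly named for a called response within a line. The count of 22 may follow in part from that choice and cannot be set against the share of all genes. Values are the log2 response in BON-1 cells minus that in QGP-1 cells. Of the granins and processing enzymes these were CHGA (-1.60) and VGF (-0.67). CHGA fell in BON-1 cells and did not pass the test in QGP-1 cells, and VGF fell in BON-1 cells and was called higher in QGP-1 cells, a call that did not survive 4 of the 6 fits on 5 libraries.

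Among the other enzymes the differences were -0.65 for MBTPS1, -0.91 for PAM, 0.83 for the gene CPM and 0.64 for CTSL. Among the granule genes they were -0.70 for ICA1L, -1.04 for SV2A and 0.71 for RAB27A.

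Among the prohormone substrates the differences were -2.62 for SST, 1.11 for ADM, -1.75 for GAL and -1.75 for IGF2. Among the transcription regulators they were -1.21 for EGR1 and 0.94 for CREM.

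Among the markers the differences were -2.96 for SSTR2, -1.73 for DDC, 1.20 for UCHL1 and -1.78 for TPH1 in the neuroendocrine list, 1.10 for the acinar marker PRSS1, and 1.00 for KRT19 and 0.47 for SOX9 in the ductal list. SSTR2, the somatostatin receptor, rose in QGP-1 cells (log2 fold change 2.22) and fell in BON-1 cells (-0.75).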

How the results depend on the processing

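The direction of each called response to DOX in QGP-1 cells held under all alternatives. In BON-1 cells 1 did not, SCG3, at -0.10 with limma on TPM, where CHGB (-0.23) and CPE (-0.20), which were not called, reversed too. In QGP-1 cells PCSK1 (0.63 and, rescaled without the 3 noncoding RNAs, 0.21) and PCSK2 (0.57 and 0.19) reversed with limma on TPM, and the difference between the lines for PCSK1N ranged from -0.016 without BON-1 DOX replicate 2 to 0.44 without BON-1 DOX replicate 3. These TPM values move with the whole table, whose median was 0.60 (rescaled 0.29) for QGP-1 and -0.31 (rescaled -0.05) for BON-1. On TPM 10 genes were higher in QGP-1 cells, beside 9149 higher and 89 lower of all 10561 genes tested, and 0 were higher and 1 lower in BON-1 cells, beside 34 higher and 335 lower of 11954. On rescaled TPM 8 were higher and 0 lower in QGP-1 cells (6491 and 659 of 12928 genes), and 2 higher and 2 lower in BON-1 cells (1171 and 2103 of 13559). With a minimum absolute log2 fold change of 1, 0 were higher in QGP-1 cells, 0 higher and 1 lower in BON-1 cells, and 1 was higher and 5 lower in BON-1 than in QGP-1 cells with vehicle. With exon-union lengths 6 of 10 genes kept their TPM rank with vehicle in each line.

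When 1 library was left out, 4 to 6 genes were higher and 0 lower in QGP-1 cells, 2 to 4 higher and 2 to 3 lower in BON-1 cells, 0 more positive and 2 to 3 more negative in the difference, and 2 higher and 7 lower in the level with vehicle. Library size alone moved the median level difference of all genes to 0.13.

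Replicate numbers did not pair the samples (correlation of deviations for same-numbered libraries -0.04 to 0.07). With the number as a replicate block, 6 genes were higher and 0 lower in QGP-1 cells, 3 higher and 3 lower in BON-1 cells, and 0 and 2 differed between the lines. The block lost VGF (edgeR adjusted p = 0.0666) and gained SCG2 (0.0185) in QGP-1 cells.

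In BON-1 libraries PCSK2 had 4 to 37 raw counts and SCG5 55 to 126.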
